A study of Mus musculus with 4 samples.

Results

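The genes described here encode the proton pump of the lysosome (the vacuolar ATPase, V-ATPase), the cathepsins and the lysosome-associated membrane proteins (LAMPs), measured in hippocampal tissue of mice 1 day after bone surgery. They were taken by a rule on their symbols, as the protein-coding genes named Atp6v with a digit, Lamp with a digit or Cts with a letter, and numbered 39 of the 29300 genes in the count table. Of the 39 genes, 9 belong to the membrane sector V0 of the pump, 12 to its cytosolic sector V1, 14 are cathepsins and 4 are LAMPs. The 2 control mice and the 2 mice with perioperative neurocognitive disorder (PND) were wild-type males of the strain C57BL/6, aged 7 to 8 months. Isoflurane anesthesia and tramadol analgesia were given to both groups. The PND mice also had an open fracture of the tibial shaft, stabilized with a nail, and the control mice did not, so the comparison addresses the effect of the fracture beyond that of the drugs. Each library was made from poly(A) RNA of hippocampal tissue.

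The V-ATPase is a rotary machine. Its V1 sector hydrolyzes ATP in the cytosol, and the energy turns a ring in the V0 sector that carries protons across the membrane into lysosomes, endosomes and synaptic vesicles. Cathepsins are the main proteases of the lysosome and work at the low pH that the pump maintains, while the LAMPs are heavily glycosylated proteins that line the inner face of its membrane. In the brain, neurons use the same pump to load synaptic vesicles with transmitter, and microglia are rich in several cathepsins. Many lysosomal genes carry the E-box CACGTG near their start, the core of the element bound by the transcription factor TFEB.

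That element was looked for in the RefSeq promoter windows of the build GRCm38.p6, each reaching from 250 bases before a gene's start to 50 bases after it. Windows existed for 29 of the 39 genes. The letters CACGTG, which read the same on both strands, occurred in 9 of the 29 genes. It was held by 8.09% of all 27025 genes with a window, and by 11.2% of those tested for expression below, against 9 of the 24 tested genes described here. Counted over windows, the share was 7.15% of 32851. The longer form TCACGTGA, which contains the first motif and is likewise the same on both strands, occurred in 5 of the 29 genes, in 1.12% of all genes and in 0.974% of all windows. The 7 promoters below were chosen among those with CACGTG, because they hold the longer form or belong to genes that were lower in PND mice, and 6 genes that were lower had windows without the motif, which are not printed. Each is shown from 140 bases before the start to 20 bases within the transcript, with CACGTG in capitals. They lie at chr4:117887310-117887469 on the minus strand (Atp6v0b), chr8:105566045-105566204 on the minus strand (Atp6v0d1), chr17:26676256-26676415 on the plus strand (Atp6v0e), chr16:44139240-44139399 on the minus strand (Atp6v1a), chr2:164833633-164833792 on the plus strand (Ctsa), chr7:142387808-142387967 on the minus strand (Ctsd) and chr8:13159021-13159180 on the plus strand (Lamp1).
Atp6v0b: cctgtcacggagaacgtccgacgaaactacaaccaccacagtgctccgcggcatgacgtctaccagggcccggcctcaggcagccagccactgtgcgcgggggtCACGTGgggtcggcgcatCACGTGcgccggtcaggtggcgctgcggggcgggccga
Atp6v0d1: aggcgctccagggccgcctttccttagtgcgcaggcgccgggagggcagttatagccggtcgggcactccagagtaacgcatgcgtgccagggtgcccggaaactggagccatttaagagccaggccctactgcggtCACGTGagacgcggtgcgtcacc
Atp6v0e: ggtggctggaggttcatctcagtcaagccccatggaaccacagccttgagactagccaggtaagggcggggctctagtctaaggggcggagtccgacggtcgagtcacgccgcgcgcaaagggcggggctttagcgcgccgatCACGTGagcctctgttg
Atp6v1a: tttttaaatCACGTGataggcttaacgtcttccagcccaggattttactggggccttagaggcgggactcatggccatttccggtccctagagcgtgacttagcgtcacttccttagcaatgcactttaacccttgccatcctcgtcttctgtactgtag
Ctsa: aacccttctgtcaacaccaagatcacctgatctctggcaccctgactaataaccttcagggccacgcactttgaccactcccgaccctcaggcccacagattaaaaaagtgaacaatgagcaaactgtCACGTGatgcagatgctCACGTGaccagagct
Ctsd: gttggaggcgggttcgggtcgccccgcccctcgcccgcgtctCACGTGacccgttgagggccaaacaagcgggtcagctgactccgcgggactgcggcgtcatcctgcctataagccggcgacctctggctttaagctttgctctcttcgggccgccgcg
Lamp1: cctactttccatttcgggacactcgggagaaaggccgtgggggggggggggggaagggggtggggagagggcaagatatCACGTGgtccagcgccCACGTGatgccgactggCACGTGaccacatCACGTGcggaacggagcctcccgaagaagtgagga
The copies differ in number and place. Lamp1 had 4 copies, which began 61, 45, 28 and 15 bases before the start. Atp6v0b had 2, at 36 and 18 bases before it, and Ctsa had 2, at 12 bases before it and at base 6 of the transcript. In Atp6v0d1 the motif began 3 bases before the start, in Ctsd 98 bases and in Atp6v1a 131 bases before it, and in Atp6v0e it began at base 4 of the transcript. These starts are those of RefSeq and can differ from the outermost limits of the genes in GENCODE, which are the gene positions given below. The printed stretches of Atp6v1a, Ctsa and Ctsd lie wholly within the GENCODE limits of these genes. Ctsd carried another copy farther upstream, and Ctsf and Ctsl, not printed, each had 1 copy of the short form. A match of letters describes these windows and is not a measurement of binding.

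Reads were counted per gene, with totals of 15763432 to 18573386 in the 4 mice, and the 39 genes held 0.562% and 0.576% of them in control and 0.492% and 0.498% in PND mice. Levels are given in CPM, the count of a gene relative to the scaled total of its library, and differences as the log2 of the PND over the control level, with its standard error. Of all genes, 17144 had enough counts to be tested, and a gene was called higher or lower where the adjusted p-value of edgeR's quasi-likelihood test was under 0.05, and a DEG where the fold change was also at least 1.5 or at most 0.67. Shares of all genes beside counts of calls are those of this test at the adjusted p, unless another fit or test is named. None was computed at an unadjusted p. All 8 hippocampal neuron markers were detected, with a summed level of 837 and 790 CPM in the control mice and 802 and 732 CPM in the PND mice. A strong trend ran through all genes: across 17120 of them, the fold change and the GC content of the transcripts had a Spearman correlation of -0.64, and the median log2 fold change was 0.60 in the eighth of genes with the lowest GC content and -0.34 in the eighth with the highest. Transcripts of the mitochondrial genome made up 2.82% and 2.53% of the control and 4.45% and 4.49% of the PND libraries. Fold changes were therefore also computed with the trend of each library with GC content and transcript length taken out as an offset of the model, called the GC and length offsets here. In bulk tissue, fewer cells of a type and less RNA per cell cannot be told apart.

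More transcripts of the V-ATPase, cathepsins and LAMPs were lower than higher in PND mice, by modest amounts. Of the 39 genes, 31 could be tested, and 13 of them were lower, 1 was higher and 17 were neither. Over all genes tested, 12.8% were lower and 13.1% higher. Of the 13, only Atp6v1f was a lower DEG, against 2.25% of all genes, and none was a higher DEG, against 6.75%. Both PND mice lay below both control mice for 19 of the 31 genes and above them for 5, and the groups overlapped for the remaining 7. Over all genes the same shares were 32.2% below and 33.2% above. The log2 fold changes had a median of -0.41 for the 7 tested V0 genes, -0.04 for the 10 tested V1 genes, -0.23 for the 11 tested cathepsins and -0.31 for the 3 tested LAMPs, and 0.01 for all genes. Without control mouse 2, 7 of the genes were lower and 2 higher, and of all genes 6.75% were lower and 6.72% higher. With the GC and length offsets, which left 0.992% of all genes lower and 1.36% higher, 4 of the 31 genes were lower (Atp6v0a1, Atp6v1b2, Atp6v1d and Atp6v1f) and 0 were higher by edgeR's test (1 at an unadjusted p under 0.05).

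**Figure D1:**
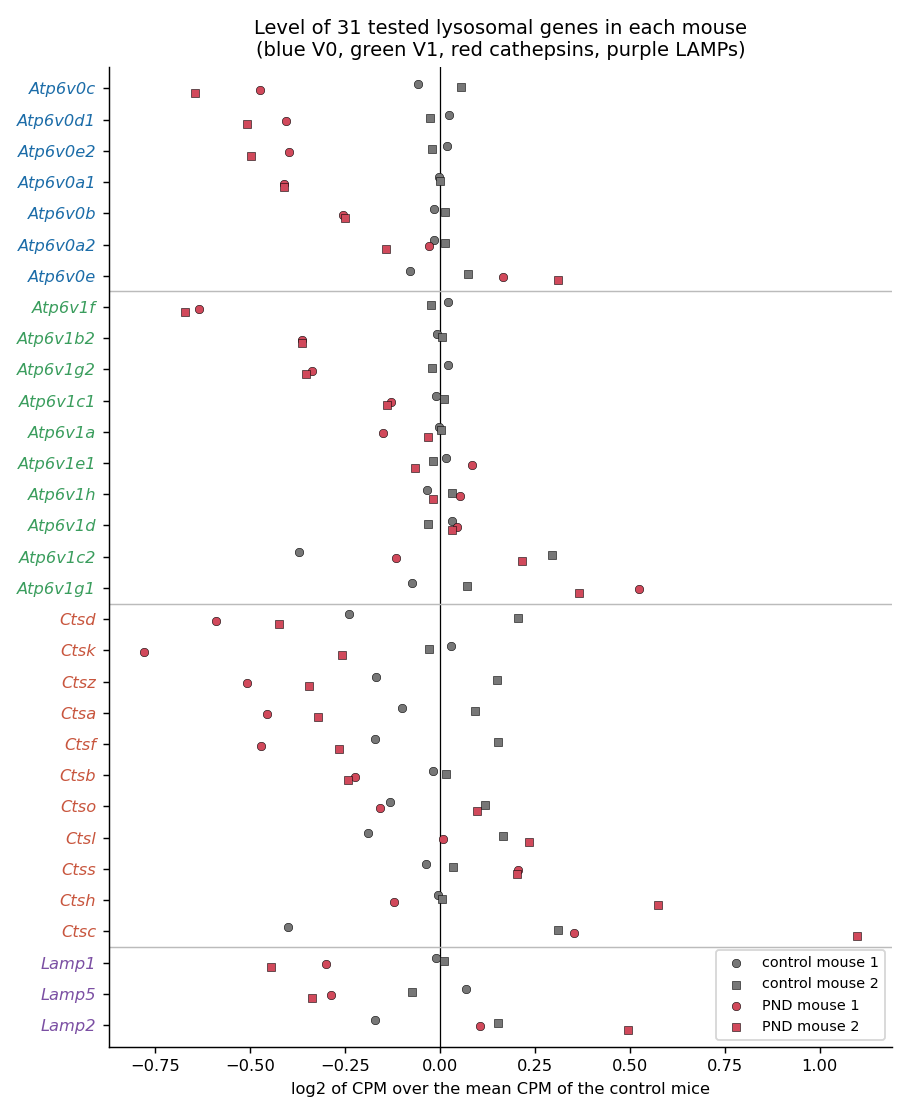
Level of each tested gene in each of the 4 mice, as the log2 of its CPM over the mean CPM of the control mice. Circles and squares are the mice with number 1 and 2, grey for control and red for PND mice. The PND mice lie to the left of both control mice for 19 of the 31 genes, among them Atp6v1f with the largest fall, and to the right for 5.

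The 8 genes that could not be tested had hardly any reads in this tissue. Atp6v0a4 had 8 and 4 counts in control against 6 and 7 in PND mice, and Atp6v1b1 had 8 and 7 against 8 and 6. These are subunit forms best known from the acid-secreting cells of the kidney and the inner ear. Atp6v0d2, the osteoclast form of subunit d, had 1 count in control mouse 1 and 0 in the other mice, and Atp6v1e2, a testis form of subunit E, had 0 to 3 counts. Among the cathepsins, Ctse had 0 to 1 counts, the neutrophil protease Ctsg 0 to 2 and Ctsw, of cytotoxic lymphocytes, 3 to 16. Lamp3, known from mature dendritic cells, had 0 to 2. At this depth no difference was detectable for these genes.

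In the V0 sector, 5 of the 7 tested genes were lower and 0 higher by edgeR's quasi-likelihood test (0 higher also at an unadjusted p under 0.05 and by DESeq2), beside 12.8% and 13.1% of all genes, and 1 of the 7 was lower with the GC and length offsets. Atp6v0a1, the neuronal form of subunit a that forms the proton path with the ring, had the most reads of the V0 genes (chr11:101009452-101063719). It stood at 760 and 762 CPM in the control mice and at 573 CPM in both PND mice. Its level was thus 24.8% lower in PND mice, a log2 fold change of -0.41 ± 0.05 (standard error; edgeR's quasi-likelihood test, Benjamini-Hochberg adjusted p = 0.00529). Atp6v0e2, the brain form of the small subunit e, had 400 and 389 CPM in the control mice and 299 and 280 CPM in the PND mice. It fell by 26.6% (log2 fold change -0.45 ± 0.06, edgeR adjusted p = 0.0058). Per kilobase of exon, the mean level in control mice was 116 CPM for Atp6v0a1, 166 CPM for Atp6v0e2 and 130 CPM for Atp6v0d1, which were the 3 highest of the sector. Atp6v0d1, which couples the ring to the rotor of V1, followed with 236 and 228 CPM against 175 and 163 CPM. It fell by 27.1% (log2 fold change -0.46 ± 0.06, edgeR adjusted p = 0.00606).

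The ring itself is built from Atp6v0c and Atp6v0b. Atp6v0c, its main proteolipid, had 25.0 and 27.1 CPM in the control mice and 18.7 and 16.7 CPM in the PND mice. With a drop of 32.1% it had the steepest fall of the sector (log2 fold change -0.56 ± 0.11, edgeR adjusted p = 0.0164). Of its transcript windows of 75 nt, 9.24% also occur in 2 pseudogenes, so its reads may in part have been left uncounted or assigned to them. Atp6v0b, the other proteolipid, changed least of the 5, from 106 and 108 CPM in the control mice to 89.9 and 90.2 CPM in the PND mice. Its log2 fold change was -0.25 ± 0.06 (edgeR adjusted p = 0.0285), and its promoter, printed above, has 2 copies of the E-box. Neither remaining V0 gene passed the test. Atp6v0a2, the form of subunit a found in the Golgi and endosomes, had a log2 fold change of -0.08 ± 0.08, and Atp6v0e, the widely expressed form of subunit e, had 0.24 ± 0.11.

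Summed over the sector, V0 transcripts stood at 1615 and 1606 CPM in the control mice and at 1247 and 1212 CPM in the PND mice. The call on Atp6v0b was lost when any of the 4 mice was left out, with adjusted p from 0.0694 to 0.115, and that on Atp6v0c without control mouse 2 (0.0685) or without PND mouse 2 (0.0603), so that 3 V0 genes were lower without either of these mice. With the GC and length offsets, Atp6v0a1 was lower (log2 fold change -0.30, edgeR adjusted p = 0.0474), and the log2 fold changes of Atp6v0d1, Atp6v0e2, Atp6v0c and Atp6v0b were -0.26, -0.26, -0.27 and 0.05, none of them past the threshold.

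The V1 sector was mixed, with 3 of 10 tested genes lower, 1 higher and 6 neither, beside 12.8% lower and 13.1% higher of all genes. Atp6v1f, a small subunit of the rotor stalk (chr6:29467718-29470512), had the largest fall of all 31 genes. It stood at 90.2 and 87.4 CPM in the control mice and at 57.3 and 55.8 CPM in the PND mice, with no overlap between the groups. The drop was 36.4%, a log2 fold change of -0.65 ± 0.07 (edgeR adjusted p = 0.00446). Atp6v1b2, the brain form of the nucleotide-binding subunit B, had the most reads of the V1 genes, with 703 and 710 CPM in the control mice and 549 and 550 CPM in the PND mice. It fell by 22.2% (log2 fold change -0.36 ± 0.05, edgeR adjusted p = 0.00654). Its partner in the catalytic head, Atp6v1a, the subunit that hydrolyzes ATP, had 584 and 586 CPM in the control mice and 528 and 573 CPM in the PND mice. Both PND mice were below the controls, but the log2 fold change of -0.09 ± 0.06 did not pass the test (edgeR adjusted p = 0.341).

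The subunits of the stalks split by gene. Atp6v1g2, the neuronal form of the peripheral stalk subunit G (chr17:35233660-35238767), had 535 and 520 CPM in the control mice and 418 and 414 CPM in the PND mice. It fell by 21.2% (log2 fold change -0.34 ± 0.06, edgeR adjusted p = 0.0077). Atp6v1g1, the widely expressed form of the same subunit (chr4:63544772-63550750), moved the other way, from 45.6 and 50.4 CPM to 69.0 and 61.9 CPM, and was the only one of the 31 genes called higher. Its rise was 36.3%, a log2 fold change of 0.45 ± 0.09 (edgeR adjusted p = 0.0166). The remaining rotor subunit Atp6v1d and the stalk subunit Atp6v1e1 had log2 fold changes of 0.04 ± 0.06 and 0.01 ± 0.07. Those of Atp6v1c1 and Atp6v1h, which regulate the joining of the sectors, were -0.13 ± 0.06 and 0.02 ± 0.07, and that of the sparse Atp6v1c2 was 0.06 ± 0.37. None of these 5 passed the test.

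The summed level of the V1 genes was 2744 and 2734 CPM in the control mice and 2411 and 2408 CPM in the PND mice. The V0 sum lost more than the V1 sum: the log2 ratio of V0 to V1 was -0.76 and -0.77 for the control and -0.95 and -0.99 for the PND mice. This difference of -0.20 had an exact two-sided permutation p of 0.333, the smallest that 2 mice against 2 can give. The medians of the sectors came together with the GC and length offsets, at -0.26 for V0 and -0.27 for V1, with 0.04 for all genes. Atp6v1f and Atp6v1b2 were still lower in that fit (log2 fold changes -0.40 and -0.41, edgeR adjusted p = 0.0451 and 0.0312), Atp6v1d became lower (-0.34, adjusted p = 0.0404), and Atp6v1g2 (-0.11) and Atp6v1g1 (0.41, adjusted p = 0.0653) were no longer past the threshold. The rise of Atp6v1g1 also missed the threshold without control mouse 1 (edgeR adjusted p = 0.0575) or without PND mouse 1 (0.0559), and 12.5% of its transcript windows occur in 2 pseudogenes.

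**Figure D2:**
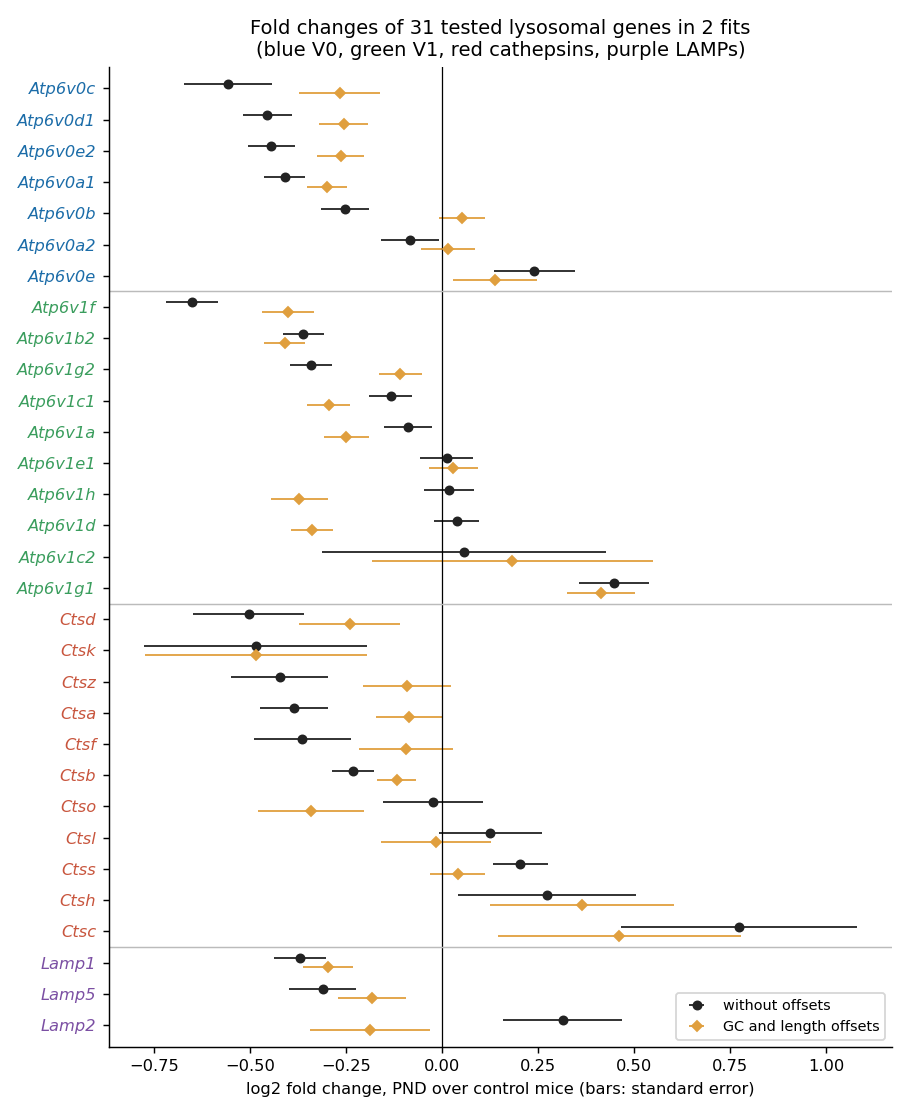
Log2 fold change of PND over control mice for the 31 tested genes (horizontal axis), with bars of 1 standard error, without offsets (black circles) and with the GC and length offsets (orange diamonds). Most V0 genes move toward 0 with the offsets, several V1 genes such as Atp6v1d and Atp6v1h move below 0, and Atp6v1f, Atp6v1b2 and Atp6v0a1 stay clearly below it.

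Several subunits of the pump are encoded by more than 1 gene, and the forms among the 39 genes can be compared on the scale of CPM per kilobase of exon. Exon length here merges all transcripts of a gene, 3712 bases for Atp6v0e and 6726 for Atp6v0a2. Their median transcript lengths are 772 and 663 bases. The size of each share depends on this choice of length, while the differences in log2 ratio between the groups do not. Tcirg1, a further form of subunit a whose symbol is not of the Atp6v series, was left out of these shares. For subunit G, Atp6v1g1 made up 15.8% and 17.6% of the summed level of both genes in control mice, against 26.7% and 24.9% in PND mice. For subunit e, the share of Atp6v0e was 3.82% and 4.33% for control and 5.90% and 6.91% for PND mice. For subunit a, the share of Atp6v0a2 in the sum of the Atp6v0a genes was 7.45% and 7.58% against 9.58% and 8.91%. In all 3 sets of genes the predominant form therefore held a smaller share of the sum in each PND mouse than in either control mouse. The log2 ratio of the predominant to the lesser form differed by -0.79 for subunit G, -0.69 for subunit e and -0.33 for subunit a between PND and control mice, each with an exact two-sided permutation p of 0.333, the smallest possible here. In the fit with the GC and length offsets these differences were -0.52, -0.40 and -0.31. The other families were nearly all of 1 form in every mouse, with Atp6v1b2 at 99.9% of subunit B, Atp6v0d1 at 100% of subunit d in 3 of the 4 mice and Atp6v1c1 at 97.9% to 98.7% of subunit C.

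**Figure D3:**
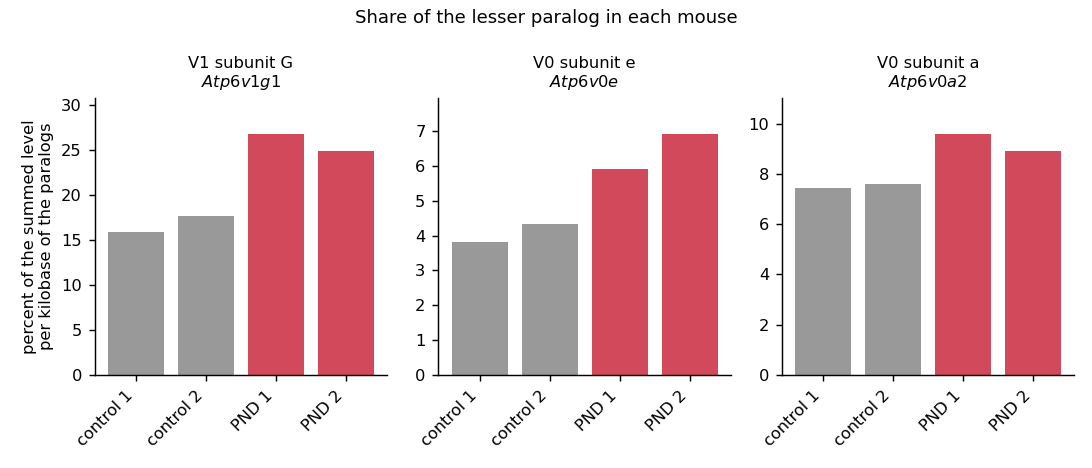
Share of the less abundant form in the summed level per kilobase of the Atp6v genes for subunit G, e and a (percent, bars starting at 0; Tcirg1 not included), for each control mouse (grey) and PND mouse (red). In each set both PND mice are above both control mice, with Atp6v1g1 at 15.8% and 17.6% in control and 26.7% and 24.9% in PND mice.

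Among the cathepsins, 3 of 11 tested genes were lower and 0 higher by edgeR's quasi-likelihood test, beside 12.8% and 13.1% of all genes. By DESeq2, 5 were lower and 0 higher, beside 12.3% and 10.7% of all genes. At an unadjusted p under 0.05 in edgeR's test, 5 were lower and 2 higher, and the share of all genes at that threshold was not computed. Ctsb, a cysteine protease with the highest level per kilobase of exon among them (a mean of 89.5 CPM in control mice), had 535 and 548 CPM in the control mice and 464 and 458 CPM in the PND mice. It fell by 14.9% (log2 fold change -0.23 ± 0.05, edgeR adjusted p = 0.0243). Ctsd, the main aspartic protease of the lysosome (chr7:142375911-142388038), had 131 and 178 CPM in the control mice and 103 and 115 CPM in the PND mice. Its control values lay far apart, but both exceeded both PND values. The log2 fold change was -0.50 ± 0.15 (edgeR adjusted p = 0.0465). Ctsa, a serine carboxypeptidase that also protects lysosomal sialidase and galactosidase, stood at 114 and 130 CPM against 89.2 and 97.9 CPM, a fall of 23.5% (log2 fold change -0.39 ± 0.09, edgeR adjusted p = 0.0239). The carboxypeptidase Ctsz (log2 fold change -0.42 ± 0.13) and the cysteine protease Ctsf (-0.36 ± 0.13) had edgeR adjusted p of 0.0521 and 0.0806. Both were lower by DESeq2 (adjusted p = 0.0278 and 0.0406), and without control mouse 2 their log2 fold changes were -0.26 and -0.20 (edgeR adjusted p = 0.208 and 0.308). The sparse Ctsk, the collagen-degrading cathepsin of osteoclasts, had a log2 fold change of -0.49 ± 0.29.

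Ctss, a cysteine protease expressed by microglia, did not share this direction. It had 51.6 and 54.2 CPM in the control mice and 60.9 CPM in both PND mice, so the groups did not overlap. The log2 fold change of 0.20 ± 0.07 did not pass the test (edgeR adjusted p = 0.0852), and it was 0.04 with the GC and length offsets. Ctsc, which activates serine proteases of immune cells, had the largest positive value of the 31 genes, 0.77 ± 0.31, again without passing (adjusted p = 0.115). The log2 fold changes of Ctsh, Ctsl and Ctso were 0.27 ± 0.23, 0.13 ± 0.13 and -0.02 ± 0.13, with overlapping groups. The 14 microglia markers had summed levels of 443 and 420 CPM in the control mice and 413 and 431 CPM in the PND mice. Of these markers, 2 were higher (P2ry12 with a log2 fold change of 0.84 and Itgam with 1.17) and 0 lower by edgeR's quasi-likelihood test, beside 13.1% and 12.8% of all genes. By DESeq2, 1 was higher and 0 lower, beside 10.7% and 12.3% of all genes. At an unadjusted p under 0.05 in edgeR's test, 2 were higher and 1 lower. The median log2 fold change of the markers was -0.10, with 8 of the 14 below 0. Both PND mice lay below both control mice for 5 of the 14 markers and above them for 2, beside 32.2% and 33.2% of all genes. Neither P2ry12 (0.22, adjusted p = 0.234) nor Itgam (1.21, adjusted p = 0.0572) was called with the GC and length offsets, and without control mouse 2 there was 1 higher and 1 lower marker.

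The 2 control libraries differed in their content of choroid plexus, a tissue that projects into the ventricles beside the hippocampus. Its 7 markers summed to 129 and 5443 CPM in the control mice and to 2037 and 3464 CPM in the PND mice, and Ttr, which took most of these reads, had 90.9 and 5078 CPM against 1914 and 3255 CPM. All 7 were above 0 in every mouse, and 0 were called by edgeR's test (0 also at an unadjusted p under 0.05 and by DESeq2), but 7 were higher without control mouse 2 and 5 lower without control mouse 1. Within each group the mouse with more of these markers also had more Ctsd, Ctsz, Ctsa and Ctsf, more of the cathepsins Ctsc, Ctsl and Ctso, which were not lower, and more Lamp2 and Atp6v0e. The same order held for Ctsh, Atp6v0a1, Atp6v0b, Atp6v1a, Atp6v1b2 and Atp6v1c2, some by very little. The share of all genes with this order was not computed. Ctsb and Ctss were nearly equal between replicates. Without control mouse 2, none of the cathepsins was lower and Ctsd had a log2 fold change of -0.27 (edgeR adjusted p = 0.118), Ctsa -0.29 (0.0893) and Ctsb -0.22 (0.102), while Ctsc was higher (1.17, adjusted p = 0.048). Without control mouse 1, 4 cathepsins were lower (Ctsa, Ctsd, Ctsf and Ctsz). Without PND mouse 1, Ctsb alone was lower and Ctsc higher (1.08, adjusted p = 0.0172). The log2 fold change of Ctsc was smaller without control mouse 1 (0.46) and without PND mouse 2 (0.35). Over all 4 fits without 1 mouse each, that of Ctsd ranged from -0.72 to -0.27. The ranges were -0.48 to -0.29 for Ctsa and -0.26 to -0.22 for Ctsb. The part of the choroid plexus in these differences was not tested. No cathepsin was called by edgeR's test with the GC and length offsets (1 was lower at an unadjusted p under 0.05), and the log2 fold changes of Ctsd, Ctsa and Ctsb were -0.24, -0.09 and -0.12.

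**Figure D4:**
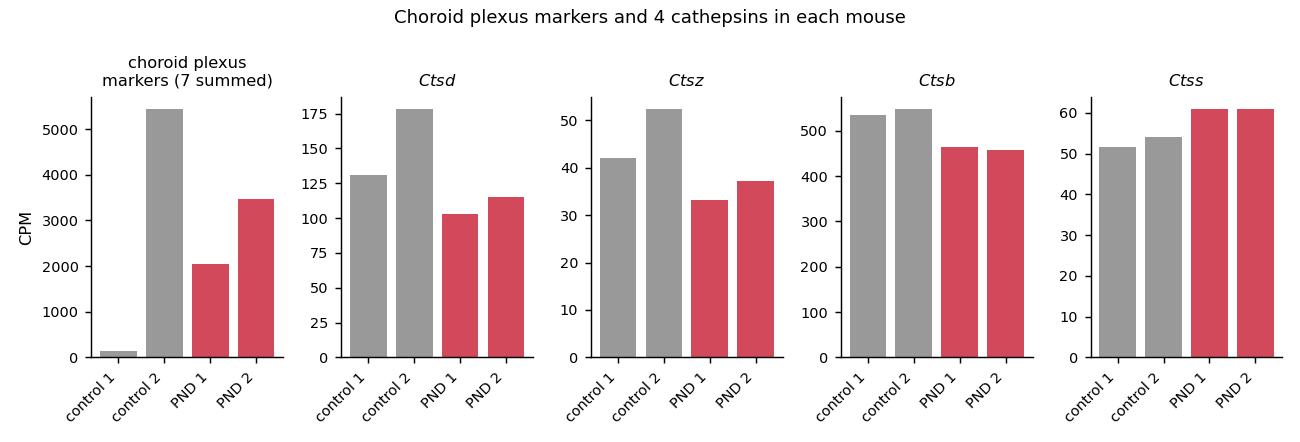
Summed CPM of the 7 choroid plexus markers and CPM of Ctsd, Ctsz, Ctsb and Ctss in each control (grey) and PND (red) mouse, with every axis starting at 0. Control mouse 1 has 129 CPM of the markers and control mouse 2 has 5443 CPM, and Ctsd and Ctsz are higher in control mouse 2 than in control mouse 1, while Ctsb and Ctss barely differ between the mice of a group.

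Some cathepsin genes overlap others, and whether the counting used strand is not given in the sources used here. Of the Ctsd transcript windows, 31.3% are shared with Gm49369, which overlaps it on the same strand, and 11.8% of those of Ctsb are shared with Fdft1 on the opposite strand. Ctsa overlaps Neurl2 and Pltp on the opposite strand, and 24.6% of the Ctsl windows occur in 10 other genes. For these genes the counts may not measure that gene alone.

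Lamp1 and Lamp2 are structural glycoproteins of the lysosomal membrane, and they did not move together. Lamp1 (chr8:13159161-13175338) had 217 and 220 CPM in the control mice and 178 and 161 CPM in the PND mice. It fell by 22.7% (log2 fold change -0.37 ± 0.07, edgeR adjusted p = 0.012), and its promoter, printed above, has the most copies of the E-box. Lamp2, which also serves chaperone-mediated autophagy, had 57.1 and 71.4 CPM in the control mice and 69.2 and 90.5 CPM in the PND mice. The groups overlapped, and the log2 fold change of 0.31 ± 0.15 did not pass the test (edgeR adjusted p = 0.185). It ranged from 0.11 to 0.48 when 1 mouse was left out, and Lamp2 was called higher without PND mouse 1 (0.48, edgeR adjusted p = 0.0357). Its transcripts have the lowest GC content of the 31 genes, 40.9%, and with the GC and length offsets its log2 fold change turned to -0.19. Lamp1 kept a value of -0.30 with the offsets but missed the threshold (edgeR adjusted p = 0.0693).

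Lamp5, a brain form of the family found in a class of inhibitory interneurons, had 48.8 and 44.3 CPM in the control mice and 38.1 and 36.9 CPM in the PND mice. It fell by 19.4% (log2 fold change -0.31 ± 0.09, edgeR adjusted p = 0.0433). The call was lost when any of the 4 mice was left out, with adjusted p from 0.0589 to 0.17, by DESeq2 (adjusted p = 0.0655) and with the GC and length offsets (log2 fold change -0.18, adjusted p = 0.286). Beside Lamp5, the list of neurogliaform interneuron markers held 5 more genes, of which Ndnf, a secreted factor, was higher (log2 fold change 0.64, edgeR adjusted p = 0.015), though not with the offsets (0.21, adjusted p = 0.334) or without control mouse 2. The log2 fold change of the reelin gene Reln was -0.33 ± 0.12, with an edgeR adjusted p of 0.0888. Those of Npy, Sv2c and Id2 were -0.44, -0.10 and 0.28, and none of them was called. Of the 6 markers with Lamp5 included, 1 was higher and 1 lower, beside 13.1% and 12.8% of all genes. Their median was -0.20, with 4 below 0.

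The trend with GC content ran through these genes as it did through the genome. Across the 31 genes, the log2 fold change and the GC content had a Spearman correlation of -0.70, given as a description, since all points come from the same 4 libraries. The genes were close to the genome in composition, with a median GC content of 50.49% against 49.97% for all genes. Among genes of low GC content, Lamp2 (40.9%), Atp6v1h (42.3%), Atp6v1d (42.3%) and Ctso (43.3%) lay below the median of all genes of like composition, and Ctsc (43.4%, log2 fold change 0.77) above it. Atp6v1b2 stood apart from the trend as well, with a GC content of 47.95% and a log2 fold change of -0.36. Against the trend on the other side lay Atp6v1g1 (48.2%, log2 fold change 0.45).

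**Figure D5:**
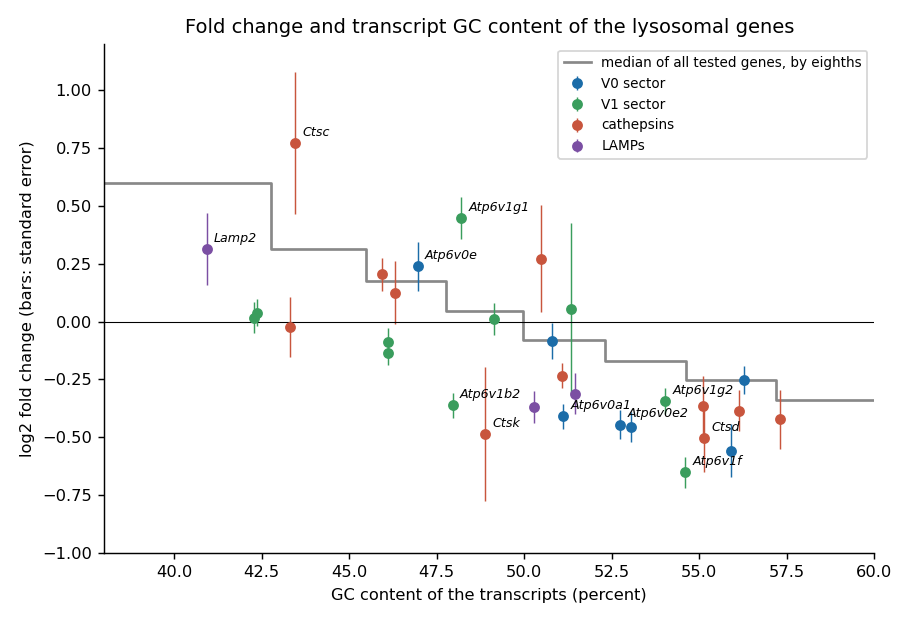
Log2 fold change (vertical axis, bars of 1 standard error) against the GC content of the transcripts (horizontal axis, percent) for the 31 tested genes, colored by group. The grey steps are the median of all tested genes in eighths of GC content, from 0.60 at the lowest to -0.34 at the highest, and most of the genes lie below them.

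The E-box occurred both among the genes that were lower and among the others. Of the 13 genes called lower, 11 had a promoter window, and 5 of these held CACGTG (Atp6v0b, Atp6v0d1, Ctsa, Ctsd and Lamp1). Of the tested genes that were not called lower, 13 had a window, and 4 held it (Atp6v0e, Atp6v1a, Ctsf and Ctsl). No test was made of this difference. Of the family of transcription factors that binds the element, Tfeb, Tfe3 and Mitf were tested, and none of these passed. Tfec was not analysed here. Tfeb had 14.16 and 13.13 CPM in the control mice and 10.03 and 10.07 CPM in the PND mice, a log2 fold change of -0.44 ± 0.14 with an edgeR adjusted p of 0.057. Tfe3, at a mean of 47.9 CPM in control and 41.5 CPM in PND mice, had a log2 fold change of -0.21 ± 0.08 (adjusted p = 0.104) and Mitf 0.32 ± 0.22 (adjusted p = 0.328).

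Regulators that hold these factors at the lysosome were tested with them. Of 16 tested genes of the TFEB family and its regulators, 2 were higher and 6 lower by edgeR's quasi-likelihood test, beside 13.1% higher and 12.8% lower of all genes, with a median of -0.21 on the log2 scale. The steepest falls were in Lamtor4 (-0.72) and Lamtor1 (-0.60), parts of the Ragulator scaffold that docks mTORC1 on the lysosome. The rises were Fnip1 (0.63), a partner of folliculin, and the GTPase Rragd (0.36). Without control mouse 2, 1 was higher and 4 were lower. None of the 16 was called by edgeR with the GC and length offsets, where 3 were higher and 6 lower at an unadjusted p under 0.05.

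Proteins that assemble or accompany the V-ATPase were tested as a list of 14 genes, of which 5 were higher and 3 lower (edgeR's quasi-likelihood test), beside 13.1% and 12.8% of all genes, with a median of -0.06. Vma21, the chaperone that assembles V0 in the endoplasmic reticulum, rose from 25.5 and 25.2 CPM in the control mice to 64.5 and 63.9 CPM in the PND mice. Its log2 fold change of 1.34 ± 0.08 exceeded that of any gene of the pump (adjusted p = 0.00393). Snx10, a sorting nexin that takes part in the delivery of the pump, rose from 65.5 and 61.7 CPM to 107 and 106 CPM (0.74 ± 0.07, adjusted p = 0.00428). The falls were Rogdi (-0.65), a part of the complex that rejoins V1 and V0, Tmem9 (-0.42) and the accessory subunit Atp6ap1 (-0.27). Atp6ap2, the prorenin receptor, had 0.15 ± 0.07 and Tcirg1, the form of subunit a known from osteoclasts, -0.10 ± 0.13, and neither passed the test. With the GC and length offsets, Vma21 (0.55) and Snx10 (0.44) were higher and Dmxl2 (-0.34) lower, beside 1.36% and 0.992% of all genes. In that fit Rogdi (-0.29), Tmem9 (-0.15) and Atp6ap1 (-0.13) were not called, and Dmxl1, which had been higher at 0.49, had -0.31 without being called.

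Other contents of the lysosome were called lower or higher at shares not tested against the 12.8% and 13.1% of all genes. Of 43 tested hydrolases, 8 were lower and 3 higher by edgeR's quasi-likelihood test, with a median of -0.21 on the log2 scale. The largest falls were in the sulfatase Arsg (-0.58) and the glycogen-degrading enzyme Gaa (-0.51), and the largest rises in the ceramidase Asah1 (0.38) and the galactosylceramidase Galc (0.37). Of 22 other membrane proteins, 5 were lower, led by the lipid transporter Abca2 (-0.53) and the potassium channel Tmem175 (-0.48), and 3 were higher, led by Tmem106b (0.49) and the amino acid sensor Slc38a9 (0.47), with a median of -0.10. Of 11 genes that sort lysosomal enzymes, 3 were lower, among them Gga1 (-0.39) and the progranulin gene Grn (-0.34), and the retromer subunit Vps35 was higher (0.27), with a median of -0.17. Of 7 genes listed as cathepsin inhibitors, Cst3, the abundant cystatin C, was lower (-0.57) and 0 were higher by edgeR's test and by DESeq2. At an unadjusted p under 0.05, 1 was higher, Serping1 (1.13 ± 0.43, edgeR adjusted p = 0.101). That gene encodes the C1 inhibitor of complement and not an inhibitor of cathepsins. Without control mouse 2, 2 hydrolases were lower and 0 higher, 3 and 1 of the membrane proteins, 1 and 0 of the sorting genes and 1 and 0 of the inhibitors. No gene of these 4 lists was called by edgeR with the GC and length offsets, and their medians lay between -0.06 and -0.01. At an unadjusted p under 0.05 in that fit, 2 hydrolases were higher and 4 lower, 4 and 5 of the membrane proteins, 0 and 3 of the sorting genes and 1 and 1 of the listed inhibitors, with Serping1 the higher one.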

How the data were processed

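Hippocampal poly(A) RNA of 2 control and 2 PND mice was read as 150 nt pairs. The authors mapped the filtered reads to mm10 and deposited, for every gene and mouse, an unnormalized read count, which was the unit used here. The submitters' processing notes list HISAT2 2.1.0, HTSeq 0.6.0, Bowtie2 2.2.3 and TopHat2, without stating the role of each, and the use of strand in counting is not given in the sources used here. The authors' own fold changes and p-values in the same table were not used.

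Genes were kept by edgeR's filterByExpr with a minimum count of 10, scaled by TMM (factors from 0.982 to 1.02) and tested in R 4.3.3 with the quasi-likelihood test of edgeR 4.0.16 (glmQLFit, glmQLFTest), condition being the only term, with Benjamini-Hochberg adjustment over 17144 genes. Calls required an adjusted p-value under 0.05, and DEGs also had to reach the study's fold changes of 1.5 or 0.67. Trends of each library with GC content and transcript length were fitted as smooth functions (mgcv 1.9.3, basis size 8) and entered an alternative fit as offsets. Further alternatives were library totals alone, DESeq2 1.42.0 size factors, its test, no count filter, the replicate number as a block and leaving out each mouse. Transcript lengths, GC contents and windows of 75 nt shared between genes came from GENCODE M21, which held 29238 of the 29300 identifiers, and promoters from RefSeq (GRCm38.p6). Replicates differed by more than sampling noise (chi-square per degree of freedom of 13.4 between the control and 8.45 between the PND mice). The labels do not say how the 2 mice of a group were kept or processed, so the p-values measure the spread between these 4 samples. The procedures were tested on simulated counts.

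The genes and gene lists were chosen with earlier results of these data known. Values in every mouse are given for genes with an adjusted p-value under 0.05, the 2 genes with the highest CPM of each group, Lamp5, Ctss and Atp6v1f. Of each further list, at most the 2 largest rises and 2 largest falls among the calls were named, with Tcirg1, Atp6ap1, Atp6ap2, Tfeb, Tfe3 and Mitf in any case. Ttr, Reln, Npy, Sv2c, Id2, Serping1, Dmxl1, Dmxl2 and Snap25 were named after their values were seen.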

Additional observations from a re-analysis of the deposited data

How the results depend on the processing

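The 3 genes Atp6v0a1, Atp6v1b2 and Atp6v1f kept their direction and call under all 11 alternatives. With library totals alone, 2 of the 31 genes were higher and 10 lower, beside 15.5% and 10.6% of all genes. The medians in that fit were -0.36 (V0), 0.0085 (V1) and -0.26 (LAMPs), with Ctso turning to 0.023. Without the count filter, 1315 of all genes were higher and 1350 lower, and 0 of the 31 were higher. With the GC and length offsets, 234 of all genes were higher and 170 lower, 0 and 4 of the 31, the medians were -0.26 (V0), -0.27 (V1), -0.091 (cathepsins) and -0.19 (LAMPs), and 6 genes changed sign: Ctsl (-0.017), Lamp2 (-0.19), Atp6v0a2 (0.015), Atp6v0b (0.051), Atp6v1d (-0.34) and Atp6v1h (-0.37). The cause was not tested.

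Replicate numbers are shared by the groups, but nothing in the labels ties them, and the deviations of same-numbered mice correlated at 0.22 across genes for the only 2 pairs, so the numbers were not taken as a pairing. With the replicate block, 3 of the 31 genes were higher (Atp6v1g1, Ctsc and Lamp2) and 15 lower, beside 15.5% and 15.3% of all genes. With the replicate block and the offsets together, 1264 of all genes were lower and 1728 higher, 12 of the 31 genes were lower (against 4 with the offsets alone) and 2 higher, the medians were -0.26 (V0), -0.27 (V1), -0.088 (cathepsins) and -0.19 (LAMPs), and the same 6 genes changed sign, with Ctsl at -0.010, Lamp2 at -0.19, Atp6v0a2 at 0.014, Atp6v0b at 0.051, Atp6v1d at -0.34 and Atp6v1h at -0.37.

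In the 4 fits without 1 mouse each, where the lone mouse of a group was assumed to vary like the other group, 1201 to 2025 of all genes were higher and 1207 to 2080 lower, and 0 to 2 of the 31 genes were higher and 7 (without control mouse 2) to 12 lower. The medians ranged from -0.43 to -0.39 (V0), -0.12 to -0.050 (V1) and -0.36 to -0.25 (LAMPs). The sign varied among these fits for Ctsl (-0.046 to 0.31), Atp6v1c2 (-0.24 to 0.43), Atp6v1h (-0.034 to 0.058), Ctso (-0.15 to 0.10), Atp6v1e1 (-0.080 to 0.089) and Ctsh (-0.11 to 0.56), none of which was called in any of these fits.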

Other observations

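Markers of other cells of the tissue were measured in the same fit, with calls by edgeR's quasi-likelihood test (13.1% of all genes higher and 12.8% lower). Of 10 neuron markers, 2 were higher (Map2 by 0.53 and Gad2 by 0.32 on the log2 scale) and 3 lower (led by Tubb3 at -0.64 and the vesicular glutamate transporter Slc17a7 at -0.39). Slc17a7 fills synaptic vesicles with glutamate by means of the proton gradient that the V-ATPase makes. The neuron markers summed to 12306 and 12027 CPM for the control and 11353 and 11039 CPM for the PND mice. Their median log2 fold change was -0.04, and it was -0.14 without PND mouse 1 and 0.03 without PND mouse 2. The calls on this list also varied with the mouse left out. Of the 8 hippocampal neuron markers, Wfs1 (-0.70) and Fibcd1 (-0.64) were lower, and Neurod6 (0.53) and Calb1 (0.48) higher, the last 2 not without control mouse 2. With the GC and length offsets none of these genes was called, Slc17a7 had -0.09, and Calb1 turned to -0.22, while another of the 10 neuron markers, Snap25, was lower in that fit (-0.43, edgeR adjusted p = 0.0451, against a log2 fold change of 0.01 without offsets, where it was not called).

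Of 8 astrocyte markers, 3 were higher, led by the water channel Aqp4 (0.73), and 2 lower (Aldoc at -0.50 and Aldh1l1 at -0.49), and of these 5 only Aqp4 was also called with the GC and length offsets. None of the 8 oligodendrocyte markers was called by edgeR (0 at an unadjusted p under 0.05 and 0 by DESeq2), but 7 were lower without PND mouse 1 and 1 higher without PND mouse 2, and their sum was 6357, 5482, 6244 and 4043 CPM in control mice 1 and 2 and PND mice 1 and 2. Of 8 endothelial markers, Flt1 was higher (0.41) and 0 were lower (0 also at an unadjusted p under 0.05 and by DESeq2), while 4 were higher without PND mouse 1 and 0 higher and 1 lower without PND mouse 2. Of 8 neutrophil markers, 4 had enough counts to be tested, and Ltf was lower (-1.63; not called without control mouse 2 or PND mouse 1) with summed levels of the list of 8.82, 14.3, 2.07 and 9.18 CPM in the same order of mice. The part of these cells in the levels of the lysosomal genes was not tested.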
